A study of Mus musculus with 24 samples.

Results

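The genes described here are 10 genes of bile acid synthesis and transport, Cyp7a1, Cyp8b1, Cyp27a1, Cyp7b1, Baat, Nr1h4, Nr0b2, Slc10a1, Slco1b2 and Abcb11, chosen by name from the 15160 genes counted in mouse liver. All 10 had counts in every mouse and passed the filter on low counts. The livers came from 24 male mice aged 5 months that received their assigned elemental amino acid diet for 8 weeks, from 8 weeks of age, and were killed after a 4 h fast. The control diet (Con) held 0.86% methionine, and the diet for methionine restriction (MR) held 0.17%. In the paper all mice ate Con from 6 weeks of age until they were assigned a diet. It also describes calorimetry and a return to home cages between the 8 weeks and tissue harvest. Which diet the mice ate in that time is not stated. The WT mice (Nfe2l2 fl/fl) were littermates with both alleles of Nfe2l2, the gene of the transcription factor NRF2, floxed and no Cre. The NRF2 KO mice (Nfe2l2 fl/(Alb)) carried the same floxed alleles with a Cre transgene driven by the albumin promoter, which acts in hepatocytes. The paper considers resident macrophages the most likely source of the Nfe2l2 mRNA that remains. Which other liver cells keep the gene was not tested. Each group held 6 mice, and the values below leave out WT_CON_7604 and WT_MR_7612, which the study removed as outliers, so that each diet was given by 5 WT and 6 NRF2 KO mice. In bulk liver, fewer cells of a type and less RNA per cell cannot be told apart.

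Bile acids are made from cholesterol in hepatocytes. The classic pathway starts with CYP7A1, its rate-limiting enzyme, and CYP8B1 then sets how much cholic acid is made. The alternative pathway starts with CYP27A1 and passes through CYP7B1. BAAT joins bile acids to taurine or glycine. FXR, encoded by Nr1h4, is the nuclear receptor that senses bile acids, and among its targets is SHP, encoded by Nr0b2, which represses Cyp7a1 and Cyp8b1. NTCP (Slc10a1) and OATP1B2 (Slco1b2) take bile acids up from blood, and the bile salt export pump (Abcb11) sends them into the canaliculus.

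The stretches of 250 bases before the annotated start are shown for Abcb11, Cyp8b1 and Nr1h4, the 3 genes with a changed level in at least 1 comparison that have an entry among the RefSeq promoters (GRCm38.p6), with searched motifs in capitals. In Abcb11 (chr2:69342617-69342866, minus strand) and in Nr1h4 (chr10:89506659-89506908, minus strand) the capitals are TGACCT, the reverse complement of AGGTCA, the hexamer that many nuclear receptors bind. In Cyp8b1 (chr9:121916306-121916555, minus strand) they match TGACNNNGC, the core of the element bound by NRF2, on the opposite strand.
Abcb11: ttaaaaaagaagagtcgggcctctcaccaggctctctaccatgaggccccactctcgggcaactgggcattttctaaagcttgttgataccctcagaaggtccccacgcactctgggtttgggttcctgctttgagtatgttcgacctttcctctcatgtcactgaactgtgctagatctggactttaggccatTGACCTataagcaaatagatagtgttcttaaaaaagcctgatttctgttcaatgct
Cyp8b1: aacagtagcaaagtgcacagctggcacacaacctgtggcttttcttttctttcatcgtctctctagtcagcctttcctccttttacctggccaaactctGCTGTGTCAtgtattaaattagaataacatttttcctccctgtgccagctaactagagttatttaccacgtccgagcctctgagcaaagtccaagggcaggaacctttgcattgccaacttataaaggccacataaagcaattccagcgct
Nr1h4: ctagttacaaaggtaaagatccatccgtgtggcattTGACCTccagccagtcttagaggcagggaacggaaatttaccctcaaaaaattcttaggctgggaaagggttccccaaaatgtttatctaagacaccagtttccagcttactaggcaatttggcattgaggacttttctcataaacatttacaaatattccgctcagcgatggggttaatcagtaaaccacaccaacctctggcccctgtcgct

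The matches lay 51, 143 and 209 bases before the start in Abcb11, Cyp8b1 and Nr1h4. AGGTCA in either direction was found in 14.0% and TGACNNNGC in 10.2% of 32851 promoter windows, so a match is a common feature and a description of letters only. The RefSeq start used for Nr1h4 lies inside the gene as GENCODE annotates it. AGGTCA was also found for Slco1b2 and for a second start of Slc10a1, and CACGTG, the E-box of clock factors, which 6.02% of windows hold, for Nr0b2. The other searched motifs, CAAGGTCA, TTATGTAA, TTACGTAA and TGATGNAAT, were in none of the 8 windows of the 7 genes with an entry.

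All 10 genes are protein coding. On GRCm38, with GENCODE M21, Cyp7a1 spans 6265612 to 6275633 of chromosome 4, and Cyp8b1, which has 1 exon, spans 121914356 to 121916305 of chromosome 9. Abcb11 spans 69238282 to 69342616 of chromosome 2 with 29 exons, and Nr1h4 spans 89454234 to 89533585 of chromosome 10, and all 4 are transcribed from the minus strand. The libraries were QuantSeq 3′ libraries, whose reads lie near the end of a transcript, in the last exon or close to it. No other annotated gene overlaps the end of a member, where such reads lie. The lowest count of a member in any of the 22 mice was 108, for Nr0b2, and totals ran from 6197291 to 22068338 counts per mouse.

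The labels were checked with Nfe2l2. Its level in CPM, counts relative to the library total after TMM scaling, was 94.0 to 107 in WT MR, 228 to 339 in NRF2 KO Con and 202 to 249 in NRF2 KO MR. Of the WT Con mice 4 had 106 to 125 CPM, and 324 CPM were found in the library labelled WT_CON_7607, a level like those of NRF2 KO. Reads near the 3′ end were thus more frequent in NRF2 KO, and whether they fall outside the deleted stretch was not tested. The paper measured the excised exon by qPCR, which is not the same measure, and reports less Nfe2l2 mRNA in NRF2 KO livers. Since the library labelled WT_CON_7607 goes against its label, the called differences of members from WT Con, and a number of other results, are also given without it. The same library was the lowest of WT Con for 7 of the 10 members. Of the mice left out, WT_CON_7604 had 48.3 CPM of Cyp7a1 and 257 CPM of Abcb11, and WT_MR_7612 had 192 and 254 CPM, so that for Abcb11 this MR mouse lay in the range of WT Con. With all 24 mice the same number of members was called in each comparison, and the log2 fold changes with MR in WT were 1.86 for Cyp7a1 and 0.53 for Abcb11. Hepatocyte markers were abundant in every group, with summed levels of 92318 to 144564 CPM over 10 of 10 measured genes.

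MR raised Cyp7a1 and Abcb11 in WT, and in NRF2 KO it raised Abcb11 and lowered Cyp8b1. The calls, at an adjusted p under 0.05 over all 13336 genes tested, were thus 2 of 10 members in each genotype, against 13.8% of all genes in WT and 12.6% in NRF2 KO. The median log2 fold change of the members was 0.15 in WT and -0.06 in NRF2 KO, beside -0.01 and 0.00 for all genes. Between the genotypes on Con 1 member was called, Nr1h4, which was higher in NRF2 KO, where 2.07% of all genes were called. On MR no member was called, where 1.93% of all genes were, and 1 member had an unadjusted p under 0.05. The interaction of genotype and diet was called for 0.0450% of all genes and for no member, with 1 member at an unadjusted p under 0.05. DESeq2, as a second tool, also called 0 members in these last comparisons.

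**Figure D1:**
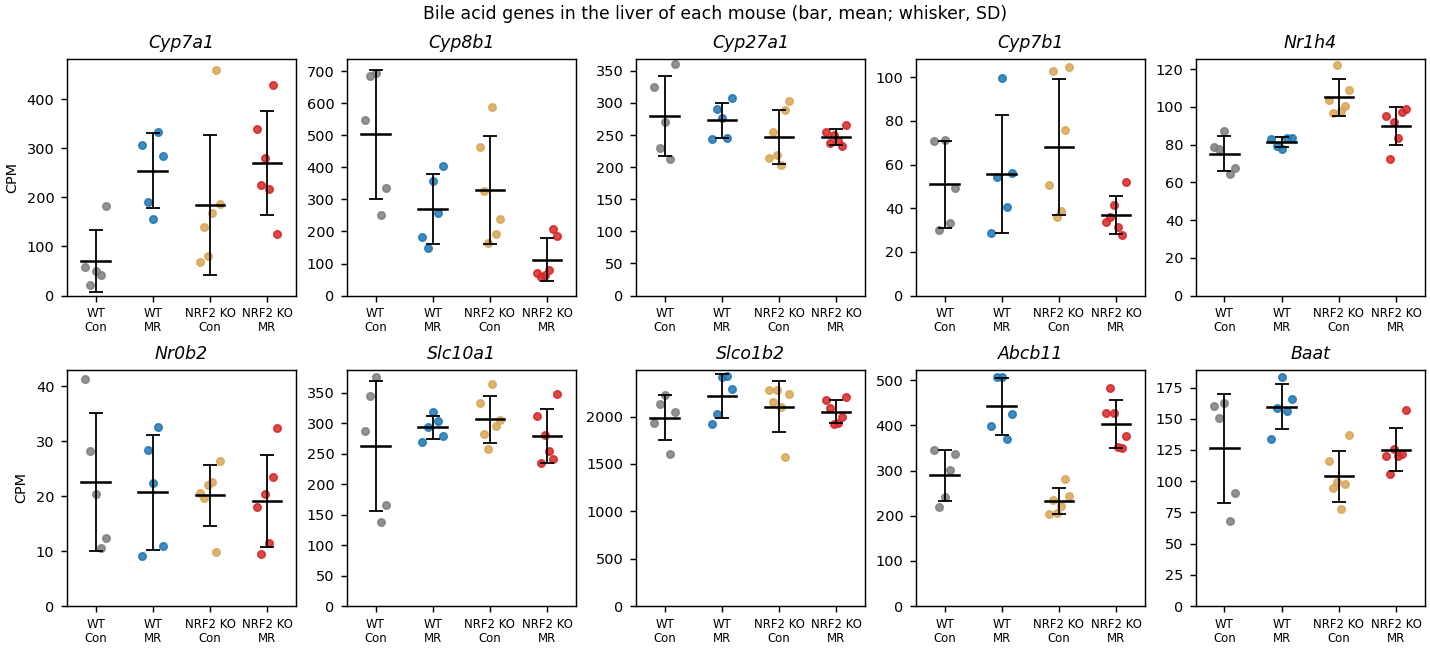
CPM of the 10 genes in each mouse (y axis, linear scale from 0) in the groups by genotype and diet. Points are mice, bars group means and whiskers SDs. Abcb11 is higher on MR in both genotypes with no overlap, and Cyp7a1 spreads widely within NRF2 KO Con, from 68.4 to 459 CPM.

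Cyp7a1 varied widely between mice. Its level in WT Con was 21.4, 42.3, 50.8, 57.3 and 182 CPM, and in WT MR it was 157, 191, 284, 307 and 333 CPM. Only the highest WT Con mouse, WT_CON_7608, reached into the range of WT MR. The mean rose from 70.7 ± 63.5 to 254 ± 76.4 CPM (SD, n = 5 and 5), a log2 fold change of 1.84 (SE 0.55, adjusted p = 0.033 by edgeR's quasi-likelihood test). In NRF2 KO Con the lowest, median and highest levels were 68.4, 154 and 459 CPM, and in NRF2 KO MR they were 124, 253 and 429 CPM. These groups overlapped over most of their ranges, and the log2 fold change of 0.56 (95% interval -0.47 to 1.58) was not called (adjusted p = 0.51). The difference between the genotypes in the effect of MR was -1.28 on the log2 scale with an interval of -2.81 to 0.24 (adjusted p = 0.73), and -1.14 (adjusted p = 0.86) without the library labelled WT_CON_7607.

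The Cyp7a1 call in WT was close to the threshold. It was lost when any 1 of 7 of the 10 WT mice was left out, with log2 fold changes of 1.61 to 1.80 and adjusted p of 0.059 to 0.074, among them the library labelled WT_CON_7607 (1.70, adjusted p = 0.074), WT_CON_7602, WT_CON_7603, WT_CON_7605, WT_MR_7609, WT_MR_7615 and WT_MR_7616. Between the genotypes on Con, Cyp7a1 was 1.37 higher in NRF2 KO on the log2 scale (SE 0.53, adjusted p = 0.23). Without WT_CON_7608 this difference was 2.09 (adjusted p = 0.042), and without the library labelled WT_CON_7607 it was 1.23 (adjusted p = 0.34).

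Genes of the circadian clock moved with these groups. Cyp7a1 is known to follow the daily rhythm of the liver, in part through the clock output factor DBP. A clock score, the mean log2 CPM of 10 genes that peak with Dbp minus that of 5 genes that peak with Arntl, was 1.98 ± 0.83 in WT Con, 3.29 ± 0.53 in WT MR, 3.86 ± 0.14 in NRF2 KO Con and 3.96 ± 0.10 in NRF2 KO MR (SD). The mean was lowest in WT Con, whose mice (0.70 to 2.92) overlapped with those of WT MR (2.46 to 3.90), and no WT Con mouse reached the lowest NRF2 KO Con mouse (3.70). Of the Dbp group 6 of 10 genes rose with MR in WT and 7 of 10 were higher in NRF2 KO on Con, and of the Arntl group 2 of 5 and 3 of 5 were lower, against 13.8% of all genes called with MR in WT and 2.07% by genotype on Con. Dbp itself was at 41.5 to 121 CPM in WT Con, 113 to 145 CPM in WT MR and 125 to 206 CPM in NRF2 KO Con. With the score as a covariate, the log2 fold change of Cyp7a1 with MR in WT was 1.23 (adjusted p = 0.31). Genotype on Con and the score cannot be told apart in these mice. Within groups Dbp and Cyp7a1 had r 0.12 (adjusted permutation p = 0.73) and rho 0.02 (adjusted p = 0.93), and r was 0.25 without the farthest mice.

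Cyp8b1 fell with MR in NRF2 KO. In NRF2 KO Con its lowest, median and highest levels were 164, 283 and 589 CPM, and in NRF2 KO MR they were 58.1, 76.1 and 207 CPM. Of the NRF2 KO MR mice 4 lay below every NRF2 KO Con mouse. The mean fell from 329 ± 167 to 111 ± 67.0 CPM (SD, n = 6 and 6), a log2 fold change of -1.56 (SE 0.42, adjusted p = 0.019), 2.95-fold lower, and it was called with each mouse left out in turn (-1.84 to -1.32). In WT Con the mice had 253, 337, 548, 685 and 696 CPM, and in WT MR they had 148, 183, 258, 357 and 406 CPM. These groups overlapped, and the log2 fold change of -0.90 (95% interval -1.84 to 0.04) was not called (adjusted p = 0.20), nor was the -1.06 (adjusted p = 0.15) without the library labelled WT_CON_7607. The genotypes did not differ in this effect beyond its error (-0.66, interval -1.93 to 0.60). On MR, Cyp8b1 was 2.42-fold lower in NRF2 KO than in WT (log2 -1.28, SE 0.43), with an unadjusted p of 0.0077 and an adjusted p of 0.14. On Con the genotypes differed by -0.61 (adjusted p = 0.55), and with the clock score as a covariate by 0.078.

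The balance of both enzymes was followed as the log2 ratio of Cyp8b1 to Cyp7a1 CPM within a mouse, which does not depend on the scaling of libraries. It was 3.10 ± 1.52 in WT Con, 0.05 ± 0.79 in WT MR, 0.99 ± 1.36 in NRF2 KO Con and -1.37 ± 1.06 in NRF2 KO MR (SD). Mean ratios were thus lower on MR in both genotypes. In WT the groups overlapped through WT_CON_7608 alone, whose ratio of 0.89 lay below the 1.19 of WT_MR_7613. In NRF2 KO the ranges were -1.25 to 2.76 on Con and -2.25 to 0.59 on MR. Within groups the genes were not related past the threshold over the 22 mice. Deviations from the group means of log2 CPM had a Pearson r of -0.23 and a Spearman rho of -0.04 (adjusted permutation p = 0.39 and 0.93 over 8 pairs of genes), and r was -0.40 without the mice farthest from the median of Cyp8b1.

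**Figure D2:**
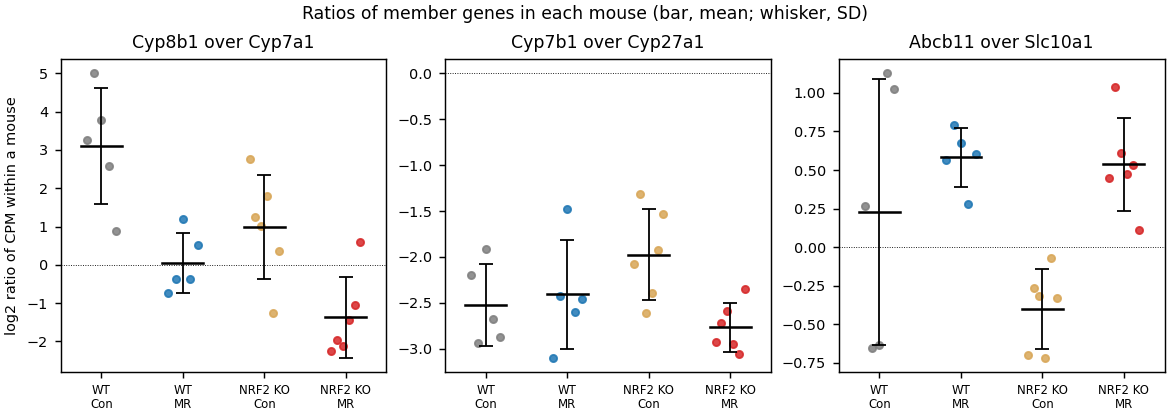
Log2 ratios of CPM within each mouse (y axis) for Cyp8b1 over Cyp7a1, Cyp7b1 over Cyp27a1 and Abcb11 over Slc10a1 in the 4 groups. Points are mice, bars means and whiskers SDs. The mean of Cyp8b1 over Cyp7a1 goes from 3.10 in WT Con to -1.37 in NRF2 KO MR.

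No comparison of the alternative pathway genes was called. Cyp27a1, the mitochondrial sterol 27-hydroxylase, lay between 204 and 360 CPM in all 22 mice, with log2 fold changes of -0.18 to 0.03 over the 5 comparisons. Cyp7b1, the oxysterol 7-hydroxylase, had lowest, median and highest levels of 35.8, 63.4 and 105 CPM in NRF2 KO Con and 28.0, 34.8 and 52.0 CPM in NRF2 KO MR. The log2 fold change of -0.88 (95% interval -1.57 to -0.18) had an unadjusted p of 0.016 and an adjusted p of 0.087. In WT the mice had 29.96, 33.3, 49.2, 70.8 and 71.4 CPM on Con and 28.5, 40.7, 54.2, 56.0 and 99.7 CPM on MR, over most of the same range. The genotypes differed in the effect of MR by -1.01 (interval -2.03 to 0.01, adjusted p = 0.67). Between NRF2 KO and WT the log2 difference was 0.41 on Con and -0.59 on MR, neither called (adjusted p = 0.64 and 0.48).

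Cyp27a1 and Cyp7b1 varied together within groups. Their deviations from the group means of log2 CPM had a Pearson r of 0.70 (permutation p = 0.0034, adjusted p = 0.027) and a Spearman rho of 0.77 (adjusted p = 0.0083) over 22 mice, and r was 0.77 without the 2 mice farthest from the median of Cyp27a1. This was the only pair of the 8 past the threshold for r or rho. The ratio of Cyp7b1 to Cyp27a1 was lowest in NRF2 KO MR, at -2.76 ± 0.27 on the log2 scale, and -1.98 ± 0.49 in NRF2 KO Con, with overlap between the groups.

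Baat, the conjugating enzyme, did not pass the test in any comparison. The WT Con mice had 68.4, 90.8, 150, 160 and 163 CPM and the WT MR mice 134, 156, 159, 165 and 184 CPM (log2 fold change 0.33, adjusted p = 0.26, and 0.18, adjusted p = 0.50, without the library labelled WT_CON_7607). Medians were 98.9 CPM in NRF2 KO Con and 121 CPM in NRF2 KO MR (0.27, adjusted p = 0.34), and the log2 difference of NRF2 KO from WT on MR was -0.35 (adjusted p = 0.41). Both MR differences were called when libraries were scaled by their size only (0.46, adjusted p = 0.040, and 0.42, adjusted p = 0.030), a scaling that moved the median of all genes to 0.09 in WT and 0.15 in NRF2 KO.

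Nr1h4, the bile acid receptor, was higher in NRF2 KO on Con. The WT Con mice had 64.7, 67.6, 77.6, 79.0 and 87.4 CPM, and the NRF2 KO Con mice had a lowest, median and highest level of 96.7, 102 and 122 CPM. The groups did not overlap, as for 1.83% of all genes in this comparison. The log2 fold change was 0.48 (SE 0.09, adjusted p = 0.0030), and 0.43 (adjusted p = 0.0067) without the library labelled WT_CON_7607. With the clock score as a covariate it was 0.51 (adjusted p = 0.20), where 7 of all 13336 genes were called in place of 276. On MR the levels were 77.9 to 83.6 CPM in WT and 72.6 to 99.0 CPM in NRF2 KO, which overlapped. The difference between the genotypes in the effect of MR was -0.34 (interval -0.59 to -0.08), with an unadjusted p of 0.010 and an adjusted p of 0.48.

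Nr0b2, the repressor downstream of FXR, was called in no comparison. It ranged from 9.1 to 41.4 CPM over the 22 mice, with group means of 19.2 to 22.6 CPM and log2 fold changes of -0.15 to 0.06. Its 95% intervals were wide, from -1.02 to 0.75 for MR in WT. Within groups Nr0b2 was not related past the threshold to Cyp7a1 (Pearson r -0.37, adjusted permutation p = 0.15; Spearman rho -0.26, adjusted p = 0.37) or to Cyp8b1 (r 0.43, adjusted p = 0.095; rho 0.40, adjusted p = 0.14). Without the 2 mice farthest on Nr0b2 these r were -0.22 and 0.36. With Nr1h4 its r was 0.54 (adjusted p = 0.061) and its rho 0.48 (adjusted p = 0.12), with r 0.37 without the 2 farthest mice.

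No difference of the uptake transporters passed the test. Slco1b2 had 1578 to 2433 CPM in all 22 mice, and group means of 1986 to 2219 CPM. Slc10a1 had group means of 263 to 306 CPM. Its spread was largest in WT Con, with 138, 165, 288, 346 and 376 CPM (SD 107), against 269 to 319 CPM in WT MR (SD 19.5). The low pair was WT_CON_7607 and WT_CON_7608, which were also the lowest pair of WT Con for Baat, Cyp8b1, Nr0b2 and Nr1h4. No comparison of either transporter was called, with log2 fold changes between -0.30 and 0.22. Within groups the transporters had r 0.47 (adjusted permutation p = 0.079) and rho 0.45 (adjusted p = 0.13), and r was 0.34 without the farthest mice.

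Abcb11, the export pump, rose with MR in both genotypes. The WT Con mice had 220, 242, 301, 337 and 346 CPM and the WT MR mice 369, 398, 426, 508 and 508 CPM. In NRF2 KO Con the lowest, median and highest levels were 205, 229 and 282 CPM, and in NRF2 KO MR 350, 402 and 483 CPM. Every MR mouse lay above every Con mouse of its genotype, which held for 9.32% of all genes in WT and 5.45% in NRF2 KO in 1 direction or the other. The log2 fold change was 0.61 (SE 0.13, adjusted p = 0.0025) in WT and 0.80 (SE 0.12, adjusted p = 1.2e-04) in NRF2 KO, that is 1.53-fold and 1.74-fold. Without the library labelled WT_CON_7607 the WT value was 0.63 (adjusted p = 0.0043), and with each of the 22 mice left out in turn both calls held, at 0.53 to 0.68 and 0.74 to 0.86. The effects did not differ between genotypes beyond their error (0.18, interval -0.18 to 0.54). On Con, Abcb11 was lower in NRF2 KO by a log2 fold change of -0.32, which was not called (adjusted p = 0.21). Within groups Abcb11 and Nr1h4 had r -0.50 (adjusted permutation p = 0.079) and rho -0.42 (adjusted p = 0.14), and r was -0.41 without the farthest mice. The log2 ratio of Abcb11 to Slc10a1 did not overlap between diets in NRF2 KO, at -0.72 to -0.07 on Con and 0.11 to 1.04 on MR. In WT the range on MR, 0.28 to 0.79, lay inside that on Con, -0.65 to 1.13. How often such ratios separate over all genes was not computed.

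**Figure D3:**
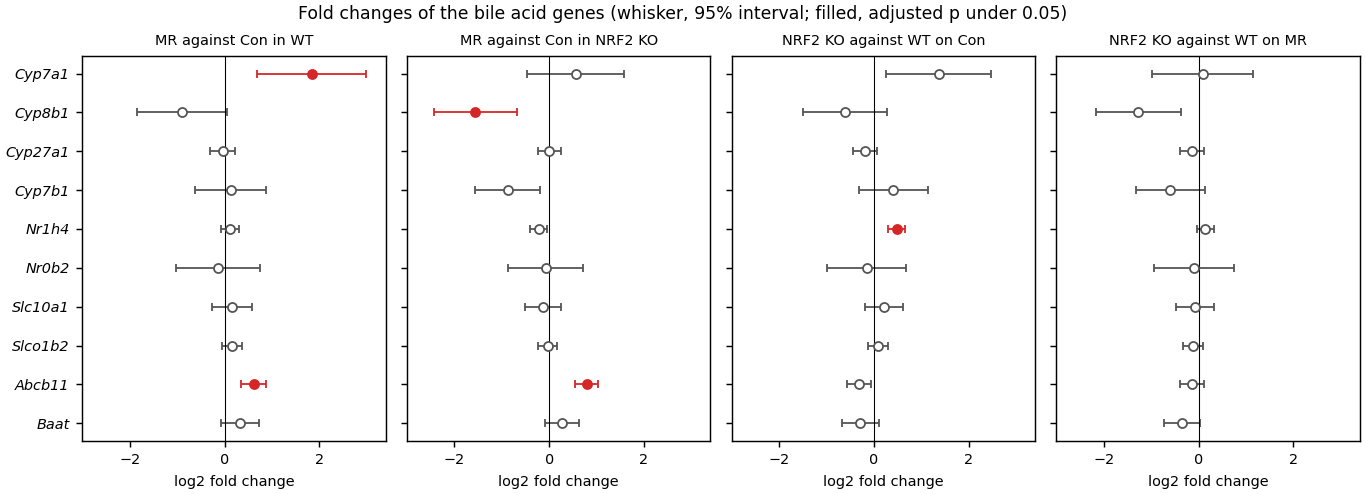
Log2 fold changes of the 10 genes (x axis) in the 4 comparisons between groups, with 95% intervals as whiskers. Filled points have an adjusted p under 0.05: Cyp7a1 (1.84) and Abcb11 (0.61) for MR in WT, Cyp8b1 (-1.56) and Abcb11 (0.80) for MR in NRF2 KO, and Nr1h4 (0.48) for genotype on Con.

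Of 77 other genes listed for bile acid synthesis, transport and its regulation, 71 were in the table and 69 were tested. MR called 20 of them in WT, 15 higher and 5 lower, and 18 in NRF2 KO, 11 higher and 7 lower, where 13.8% and 12.6% of all genes were called. Genotype called 4 on Con, 1 higher and 3 lower in NRF2 KO, and 6 on MR, all lower in NRF2 KO, where 2.07% and 1.93% of all genes were called. The counts of single lists below are to be read beside the same shares. The median log2 fold changes of these 69 genes were 0.09, 0.06, 0.01 and -0.04, beside medians of all genes within 0.01 of 0. Hsd3b7, Ch25h, Slco1a6, Slc51a, Fgf15 and Gpbar1 were not analysed here.

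**Figure D4:**
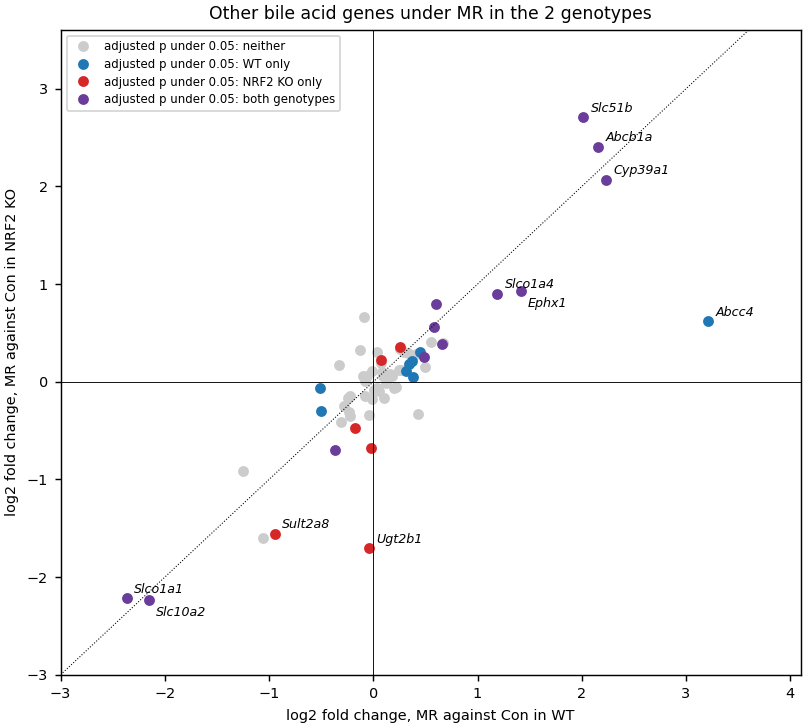
Log2 fold change with MR in WT (x axis) and in NRF2 KO (y axis) of the 69 other bile acid genes tested, colored by the genotype in which the adjusted p was under 0.05. Most called genes lie near the dotted line of equal change, and Abcc4 (3.22 in WT, 0.62 in NRF2 KO) and Ugt2b1 (-0.04 and -1.71) lie apart from it.

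Of 15 tested genes listed with the classic pathway and side chain, 3 rose and 2 fell with MR in WT. The list is broader than the enzymes of bile acid synthesis, and a role of Hacl1 or Acot12 in that synthesis was not tested. The called genes were Hacl1 (log2 fold change 0.61), Acox2 (0.45), which encodes the peroxisomal oxidase of the side chain, and Acot12 (0.38), and, lower, Akr1c20 (-0.50) and Scp2 (-0.36), the sterol carrier that holds the peroxisomal thiolase. In NRF2 KO Hacl1 rose (0.80), and Scp2 (-0.70) and Akr1c6 (-0.48) fell. Slc27a5, the bile acid CoA ligase that acts before BAAT, was called in no comparison by edgeR. On MR, Acox2 was lower in NRF2 KO than in WT (-0.52, adjusted p = 0.014), a call lost with the clock score as a covariate (-0.39, adjusted p = 0.13) and without WT_MR_7613 (-0.48, adjusted p = 0.051). The WT calls of Hacl1 and Scp2 held in 18 and 15 of 22 fits with 1 mouse left out, and that of Hacl1 was lost without the library labelled WT_CON_7607 (0.55, adjusted p = 0.062).

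Cyp39a1, the 24-hydroxycholesterol 7-hydroxylase, rose in both genotypes. It had 10.8 to 19.7 CPM in WT Con and 48.4 to 98.4 CPM in WT MR, and 9.76 to 16.7 CPM in NRF2 KO Con and 35.3 to 63.0 CPM in NRF2 KO MR. The log2 fold changes were 2.24 (SE 0.21, adjusted p = 1.7e-06) and 2.07 (SE 0.19, adjusted p = 1.6e-06), with no overlap in either genotype. Stard5, a sterol carrier, rose by 0.49 and 0.25 on the log2 scale, and its relative Stard4 by 0.34 in WT. The call of Stard5 in NRF2 KO held in only 7 of 22 fits with 1 mouse left out and was lost with all 24 mice (adjusted p = 0.055) and with only the groups compared (adjusted p = 0.054). With Cyp39a1, 3 of 7 tested genes of the alternative and oxysterol list were called in WT and 2 of 7 in NRF2 KO.

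Of the 5 tested genes that modify bile acids, none was called with MR in WT and 2 fell in NRF2 KO. Ugt2b1, a glucuronosyltransferase, had lowest and highest levels of 180 and 608 CPM in WT Con, 341 and 438 CPM in WT MR, 185 and 391 CPM in NRF2 KO Con and 73.4 and 113 CPM in NRF2 KO MR. The lowest WT Con mouse was the library labelled WT_CON_7607. The NRF2 KO MR mice lay below every other mouse, with a log2 fold change of -1.71 against NRF2 KO Con (SE 0.22, adjusted p = 8.2e-05) and -2.09 against WT MR (SE 0.23, adjusted p = 1.3e-05). The difference between the genotypes in the effect of MR was -1.66 (SE 0.32) with an unadjusted p of 4.8e-05 and an adjusted p of 0.064 by edgeR. DESeq2 called it (adjusted p = 1.7e-04), as did edgeR with scaling by library size (adjusted p = 0.021), with all 24 mice (adjusted p = 0.046) and without the library labelled WT_CON_7607 (-1.49, adjusted p = 0.035). Sult2a8, a bile acid sulfotransferase of mouse liver, fell in NRF2 KO (-1.55, adjusted p = 0.014) and was at -0.94 in WT (adjusted p = 0.15). Cyp2c70, which makes muricholic acids in mice, was at 0.66 in NRF2 KO (adjusted p = 0.052), and DESeq2 called it (adjusted p = 0.016).

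Among the other uptake genes 4 of 6 changed with MR in each genotype. Slco1a1, an organic anion transporter, fell from 196 to 449 CPM in WT Con to 4.45 to 203 CPM in WT MR (log2 fold change -2.36, adjusted p = 0.0485), and from 363 to 562 CPM in NRF2 KO Con to 17.1 to 239 CPM in NRF2 KO MR (-2.22, adjusted p = 0.044). Both calls lay near the threshold, and only 3 of 22 and 9 of 22 fits with 1 mouse left out kept them. Slco1a1 is male biased in liver. Of 10 listed male-biased genes, Slco1a1 among them, 2 fell in WT and 7 in NRF2 KO, while 4 of 8 and 5 of 8 female-biased genes rose, where 13.8% and 12.6% of all genes were called. The part of these shifts in the result was not tested. Slco1a4 rose in both genotypes (1.19 and 0.90), and with the clock score as a covariate its value in WT was 0.58 (adjusted p = 0.32).

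Ephx1, the microsomal epoxide hydrolase, which has also been described as a bile acid carrier, rose with MR in WT from 104 to 281 CPM to 486 to 605 CPM (1.42, adjusted p = 4.7e-05, or 1.25 with WT_CON_7607 left out) and in NRF2 KO from 65.4 to 114 CPM to 136 to 179 CPM (0.93, adjusted p = 0.0011). It was lower in NRF2 KO on Con (-1.26, adjusted p = 5.3e-04) and on MR (-1.75, adjusted p = 2.2e-06). The lowest WT Con value was again that of the library labelled WT_CON_7607, without which the difference on Con was -1.43. Slc10a2, the apical bile acid transporter, which in liver marks bile duct cells, fell from 16.9 to 31.1 CPM to 0.60 to 10.4 CPM in WT (-2.15, adjusted p = 0.0027) and from 11.8 to 24.2 CPM to 2.31 to 9.43 CPM in NRF2 KO (-2.23, adjusted p = 0.0013). Other bile duct markers also fell in WT. With Slc10a2 among them in both genotypes, 6 of 8 tested bile duct markers fell in WT and 2 of 8 in NRF2 KO. The sum of 10 measured markers, which includes Slc10a2, was 84.2 to 120 CPM in WT Con and 39.2 to 55.8 CPM in WT MR. In NRF2 KO it was 72.3 to 86.3 CPM on Con and 42.2 to 56.2 CPM on MR. No measured bile duct marker was at 0 in all mice, and the part of this shift in the change of Slc10a2 was not tested.

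By edgeR over the 22 mice the interaction was called for Abcc4 and Abcg2, which are export genes. Abcc4 (MRP4), which moves bile acids back to blood, had 2.05, 2.14, 2.56, 3.03 and 3.11 CPM in WT Con and 16.7, 18.4, 18.5, 33.3 and 35.0 CPM in WT MR. In NRF2 KO it had 2.13 to 3.05 CPM on Con and 2.13 to 7.07 CPM on MR. It rose 9.29-fold in WT (log2 3.22, SE 0.26, adjusted p = 3.7e-08) and by a log2 fold change of 0.62 in NRF2 KO, which was not called (adjusted p = 0.10). The interaction was -2.60 on the log2 scale (SE 0.35, adjusted p = 0.0020) and -2.66 (adjusted p = 0.0057) without the library labelled WT_CON_7607, and on MR Abcc4 was lower in NRF2 KO with no overlap (-2.55, adjusted p = 6.2e-07), as were 4.60% of all genes in 1 direction or the other. Over all 24 mice the difference of the effects was -2.78 (adjusted p = 0.18), where the left out mice WT_CON_7604 and WT_MR_7612 had 7.34 and 93.5 CPM. With the clock score as a covariate it was -2.33 (adjusted p = 0.059).

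Abcc3 (MRP3), the other exporter of this kind, was lower in NRF2 KO on both diets. It had 36.3 to 46.2 CPM in 4 WT Con mice and 8.38 CPM in the library labelled WT_CON_7607, 38.9 to 51.1 CPM in WT MR, 5.09 to 20.1 CPM in NRF2 KO Con and 7.17 to 10.6 CPM in NRF2 KO MR. The log2 fold change by genotype was -1.59 (adjusted p = 0.0099) on Con, -1.84 (adjusted p = 3.3e-05) without that library, and -2.35 (adjusted p = 2.5e-04) on MR. The call on Con was lost with only the groups compared (-1.59, adjusted p = 0.14) and with the clock score as a covariate (-1.79, adjusted p = 0.20). MR called Abcc3 in neither genotype. Abcg2, a canalicular exporter, had 59.2 to 81.2 CPM in WT Con, 63.7 to 81.6 CPM in WT MR and 55.0 to 67.6 CPM in NRF2 KO Con, and 35.2 to 43.5 CPM in NRF2 KO MR. It fell with MR in NRF2 KO (-0.68, SE 0.08, adjusted p = 7.3e-06), and the effect differed from that in WT by -0.65 (SE 0.12, adjusted p = 0.023), or -0.59 (adjusted p = 0.035) without the library labelled WT_CON_7607. That call was lost, with adjusted p of 0.050 to 0.071, when WT_CON_7603, WT_MR_7611, WT_MR_7616, KO_CON_7617, KO_CON_7618, KO_MR_7625 or KO_MR_7628 was left out.

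Slc51b, a subunit of the basolateral exporter OST and a known target of FXR, rose from 1.20 to 4.45 CPM to 6.73 to 18.1 CPM in WT (log2 2.02, SE 0.39, adjusted p = 0.0019) and from 0.84 to 4.09 CPM to 6.99 to 19.2 CPM in NRF2 KO (2.71, SE 0.36, adjusted p = 1.2e-04). Abcb1a, a multidrug exporter of the canalicular membrane, rose from 2.35 to 8.57 CPM to 18.9 to 28.8 CPM in WT (2.16, adjusted p = 1.4e-04) and from 2.60 to 7.36 CPM to 15.7 to 32.4 CPM in NRF2 KO (2.41, adjusted p = 2.7e-05). Neither overlapped between diets in either genotype. Abcc2, the canalicular exporter of conjugates, rose in WT (0.37, adjusted p = 0.034), a call that held in 17 of 22 fits with 1 mouse left out and not without the library labelled WT_CON_7607 (0.29, adjusted p = 0.094). Abcb4, the phospholipid floppase, was called in no comparison by edgeR. In all, 4 of 13 export genes rose in WT, and 2 rose and 1 fell in NRF2 KO.

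**Figure D5:**
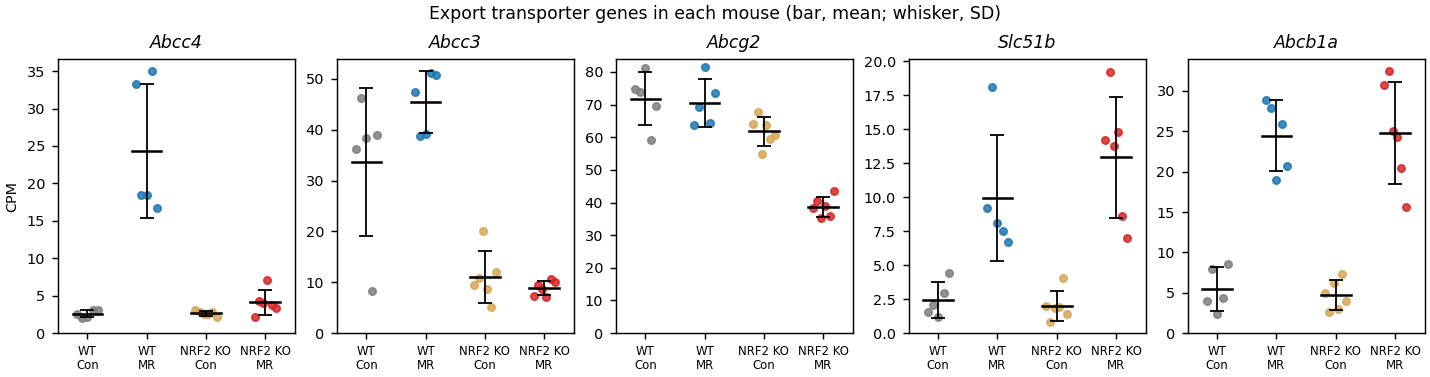
CPM of 5 export transporter genes in each mouse (y axis, linear scale from 0) in the 4 groups, with means and SDs. Abcc4 is at 16.7 to 35.0 CPM in WT MR and at 7.07 CPM or less elsewhere, Abcc3 is low in NRF2 KO on both diets and in 1 WT Con library at 8.38 CPM, and Slc51b and Abcb1a are high on MR in both genotypes.

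Of 23 tested regulators, 3 rose and 1 fell with MR in WT, and 4 rose in NRF2 KO. Klb, the coreceptor through which FGF signals repress Cyp7a1, rose by 0.66 in WT (10.8 to 15.9 CPM on Con, 18.4 to 27.0 CPM on MR, adjusted p = 0.0014) and by 0.39 in NRF2 KO (adjusted p = 0.030, called in 16 of 22 fits with 1 mouse left out). Its partner Fgfr4 was not called, at -0.31 in NRF2 KO (adjusted p = 0.067). Mafg, a small MAF protein that represses bile acid synthesis genes and also pairs with NRF2, rose by 0.59 in WT and 0.56 in NRF2 KO. Foxo1 rose in WT (0.31), and Zfp36l1, an RNA binding protein that destabilizes Cyp7a1 mRNA, fell in WT (-0.51). The call of Foxo1 in WT held in only 10 of 22 fits with 1 mouse left out, and not without the library labelled WT_CON_7607 (0.26, adjusted p = 0.11), with only the groups compared (adjusted p = 0.083) or with the clock score (adjusted p = 0.084). On Con, Foxo1 was higher (0.50) and Zfp36l1 lower (-0.49) in NRF2 KO. Nr1i2, the pregnane X receptor, rose in NRF2 KO (0.35), as did Nr1h2 (0.23), a liver X receptor. The call of Nr1h2 held in 16 of 22 fits with 1 mouse left out. Nr5a2, Hnf4a, Nr1h3 and Nr1i3 were called in no comparison by edgeR over the 22 mice. Nr1i3, the constitutive androstane receptor, was at 0.67 with MR in WT (adjusted p = 0.058) and was called by DESeq2 (0.68, adjusted p = 0.021) and by limma (0.71, adjusted p = 0.047). Hnf4a was at 0.27 in WT (adjusted p = 0.12) and was called with scaling by library size (0.37, adjusted p = 0.014) and with the clock score (0.52, adjusted p = 0.031).

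For each member the 3 genes of at least 5 CPM whose log2 CPM followed it most closely over the 22 mice were found among 8777 genes, as a description that includes differences between groups. For Abcb11 these were Akr1c19 (Pearson r 0.92), Gstt2 (0.92) and Fubp1 (0.91), for Baat Rida (0.92), Ugt3a2 (0.89) and Mccc1 (0.88), and for Nr1h4 Tedc2 (0.90), Dgat2 (0.84) and Hlf (0.84), a clock output gene. For Cyp7a1 they were Ppat (0.89), Atg16l1 (0.87) and Idh3a (0.87), for Cyp8b1 Chpt1, Sphk2 and Mgst1 (each 0.86), and for Slc10a1 Slc2a9 (0.86), Ndufv2 (0.86) and Atp5a1 (0.85). Cyp7b1 followed Phyh (0.84), Prdx4 (0.78) and Cyp2c67 (0.78). For Slco1b2 these were Adi1 (0.74), Crebl2 (0.72) and Sec14l4 (0.71), for Cyp27a1 Acsm5 (0.69), Hspb1 (0.67) and Smurf1 (0.67), and for Nr0b2 Ndufaf1 (0.69), Trappc11 (0.67) and Nr2f6 (0.67). No member was among the 3 genes most like another member.

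Markers of other liver cells and zones were counted beside these results. With MR, 5 of 9 macrophage, 5 of 10 stellate and 1 of 5 red blood cell markers fell in WT, and 2 of 9, 4 of 10 and 1 of 5 in NRF2 KO, where 13.8% and 12.6% of all genes were called. Of 10 pericentral markers 2 fell in WT and 4 in NRF2 KO, of 10 periportal markers none was called, and of 10 hepatocyte markers 1 fell in each genotype. Of 10 endothelial markers none was called in WT and 1 rose in NRF2 KO. Summed macrophage markers were 397 to 520 CPM in WT Con and 309 to 353 CPM in WT MR. In NRF2 KO they were 335 to 500 CPM on Con and 294 to 398 CPM on MR, which overlapped. No measured marker was at 0 in all mice. The part of these shifts in the changes of bile acid genes was not tested.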

How the data were processed

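Liver RNA of 24 male mice was sequenced as QuantSeq 3′ libraries, 1 per mouse. The authors deposited raw read counts per gene, made with Lexogen's QuantSeq pipeline. The submitters' notes name GRCm38, and the aligner and annotation are not given in the sources used here. The second table holds normalized signal, the same counts divided by DESeq2 size factors as deposited by the authors (R 3.4.3 and DESeq2 1.18.1 per the submitters' notes). Samples were grouped by the labels, and WT_CON_7604 and WT_MR_7612 were left out as in the study.

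Counts were tested in R 4.3.3 with edgeR 4.0.16: TMM scaling, its filter on low counts (13336 of 15160 genes kept), a robust quasi-likelihood fit of the 4 group means, and Benjamini-Hochberg adjustment over all genes tested, with calls under 0.05. Standard errors and 95% intervals come from the F statistic with the log2 fold change. CPM are TMM scaled, with a prior count of 2 for log2 CPM. The comparisons were MR against Con in each genotype, NRF2 KO against WT on each diet, and their interaction. Pairs of genes were correlated over mice on deviations from group means, with 100000 two-sided permutations within groups and adjustment over 8 pairs. Intervals of counts were not used, since the spread between mice is larger; depth was 6197291 to 22068338 counts per mouse.

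All members were named in every comparison. Of the other bile acid genes, up to 4 of each of 6 lists with the smallest adjusted p among those called were named, and 12 others always. Differences under 0.25 on the log2 scale that were not called are given as ranges or counts. The members and lists were chosen with earlier results of these data known. The alternatives tried were scaling by size factors of DESeq2 or by library size, no filter on counts, limma 3.58.1 on log2 of the deposited normalized signal plus 1, DESeq2 1.42.0, only the groups compared, all 24 mice, a clock score as covariate, and each mouse left out. On simulated data with 200 changed genes (log2 fold change 1) among 13205, 189 were recovered for MR in WT (6 false) and 192 in NRF2 KO (7 false). The changed genes were drawn from those of at least 5 CPM on average, with dispersions estimated from these data. Recovery was thus not measured for genes of lower level, nor for single members. No libraries within a group were alike enough to be 1 sample. Positions are from GENCODE M21, promoters from RefSeq (GRCm38.p6). Python 3.11.15 and matplotlib 3.10.9 served for the plots. The labels name no batch.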

Additional observations from a re-analysis of the deposited data

Results flagged for a closer look

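Within groups, 3 of 40 sets of member values held a mouse far from the others by Dixon's test, where chance gives about 2. Cyp7a1 stood at 182 CPM in WT_CON_7608, the highest of WT Con, and at 459 CPM in KO_CON_7622, the highest of NRF2 KO Con. Slco1b2 stood at 1578 CPM in KO_CON_7622, the lowest of NRF2 KO Con. Without KO_CON_7622 the log2 fold change of Cyp7a1 with MR in NRF2 KO was 1.07 in place of 0.56, and without WT_CON_7608 it was 2.56 in place of 1.84 in WT.

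The interaction was called by edgeR for Abcc4 (-2.60 on the log2 scale, adjusted p = 0.0020) and Abcg2 (-0.65, adjusted p = 0.023). These are 2 of 69 other bile acid genes, where 0.0450% of all genes tested were called. The lists were chosen with earlier results of these data known, so these counts are a description. The Abcc4 call was lost over all 24 mice (adjusted p = 0.18) and with the clock score (adjusted p = 0.059). That of Abcg2 was lost in 7 of 22 fits with 1 mouse left out.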

How the results depend on the processing

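The calls of Abcb11 with MR in both genotypes and of Cyp8b1 in NRF2 KO held under all alternatives run. The call of Nr1h4 was lost only with the clock score, and that of Cyp7a1 in WT with the clock score, with only the groups compared (1.83, adjusted p = 0.073) and without any 1 of 7 WT mice. With scaling by library size 29 other bile acid genes were called for MR in NRF2 KO in place of 18. Of all 13336 genes 2785 were called there in place of 1677, so the rise was not particular to the listed genes. With only the groups compared, 1 member was called for MR in WT and 1, Baat (-0.34, adjusted p = 0.045), for genotype on MR, and 2 other genes for genotype on Con and 13 on MR. Over all genes this setting called 1233 of 12567 for MR in WT, 99 of 12764 for genotype on Con and 600 of 12759 on MR. With the clock score, 1 member and 12 other genes were called for MR in WT, 0 and 0 for genotype on Con and 1 other gene for the interaction. Over all 13336 genes it left 1158, 7 and 3 calls in these comparisons, in place of 1843, 276 and 6. Between genotypes on Con that score turned the direction of Cyp8b1 (0.078), Baat (0.25), Hacl1 (0.26) and Slco1a4 (-0.52), and in the interaction that of Slco1a4 (0.29). With limma on the normalized values Slc10a2 turned to 0.032 for genotype on MR. The causes were not tested. With each mouse left out, 1 to 2 members were called for MR in WT and 1 to 2 for genotype on Con, and 1 to 3 other genes for the interaction. Slc51b for genotype on Con ran from -0.62 to 0.05, the latter without WT_CON_7608. Calls of other named genes were lost as well. For MR in WT these were, with the clock score, Slc51b (1.49, adjusted p = 0.084), Akr1c20, Stard4, Stard5, Zfp36l1, Abcc2, Foxo1, Scp2, Slco1a1 and Slco1a4, with only the groups compared Acox2, Slco1a1, Slco1a4, Abcc2, Foxo1 and Scp2, over all 24 mice Slco1a1 and Akr1c20, with no filter on counts Slco1a1 and Scp2, and with scaling by library size Scp2. For MR in NRF2 KO they were Stard5 and Nr1h2 with only the groups compared, and Slco1a1, Stard5 and Sult2a8 (adjusted p = 0.076) over all 24 mice. By genotype on Con, Abcc3, Ephx1, Foxo1 and Zfp36l1 were lost with the clock score and Abcc3 and Zfp36l1 with only the groups compared, and on MR Acox2 was lost with the clock score. The Abcc4 interaction was lost with the clock score and over all 24 mice. With 1 mouse left out, calls of Abcc2, Abcg2, Acox2, Foxo1, Hacl1, Klb, Nr1h2, Scp2, Slco1a1 and Stard5 were lost in at least 1 fit. For Hacl1 in WT these mice were WT_CON_7605, WT_CON_7607, WT_CON_7608 and WT_MR_7615, for Abcc2 WT_CON_7602, WT_CON_7607, WT_MR_7609, WT_MR_7613 and WT_MR_7615, and for Klb in NRF2 KO KO_CON_7618, KO_CON_7620, KO_CON_7623, KO_MR_7625, KO_MR_7627 and KO_MR_7628. No paired analysis was possible because the mouse numbers differ between groups. At 5 or 6 mice per group the interval of Cyp7a1 spans over 2 log2 units, and Nr0b2, with 108 counts at the least, has the lowest depth.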
